A study of Penicillium oxalicum with 6 samples.

Results

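The 104 genes described here had footprint levels 4 to 16 times lower in a PoxTMA7 knockout of the filamentous fungus Penicillium oxalicum than in the wild type, out of 8909 gene identifiers measured. They were chosen from the measured values. Each had a wild-type mean of at least 40 FPKM (footprints scaled for gene length and library size), a knockout mean above 1/16 and at most 1/4 of the wild-type mean, and no knockout value as high as any wild-type value. Identifiers in 6 runs of consecutive numbers were left out, and 8 genes of those runs met the other conditions. The data are ribosome profiling (Ribo-seq) libraries of mycelium, 3 from wild-type and 3 from PoxTMA7-knockout cultures, called biological replicates in the labels. Both strains were grown for 24 h with 1% glucose and then for 24 h with 1% Avicel, a microcrystalline cellulose. Strains were assigned from the titles, because for knockout replicates 2 and 3 the genotype entry gives PoxTMA8 and PoxTMA9 instead of PoxTMA7. The labels do not say whether the knockout libraries came from 1 transformant.

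Ribosome profiling sequences the short stretches of mRNA that a ribosome shields from nuclease. A gene's footprint level rises with the amount of its mRNA and with the number of ribosomes on each mRNA. Without RNA-seq of the same mycelium, which was not analysed here, these cannot be told apart, and neither can lower levels in all hyphae and fewer hyphae that express a gene. TMA7 is known from budding yeast as a protein found with the translation machinery. P. oxalicum is a mould known for secreting enzymes that break down cellulose and other plant polymers. The deposited files give identifiers with no gene names, and 0 of these identifiers matched the 9964 genes of the RefSeq table used here. What the 104 genes encode, and the level of PoxTMA7 itself, were therefore not analysed here, and no sequence is shown.

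Whole footprints could be read back from the steps between FPKM values for 7851 of the 7855 genes above 0 in at least 3 libraries, and for all 104 genes described here. As the smallest whole-number readings, they summed to 401721 to 791770 in the wild-type libraries and to 1076030 to 1332030 in the knockout libraries. Depth and strain therefore go together in this design. Depth was also taken as the inverse of the FPKM value of a footprint, which carries the deposited scaling as well as the number of footprints. Relative to wild-type replicate 1, this depth was 1.22 in wild-type replicate 2 and 0.625 in wild-type replicate 3. It was 1.75, 1.94 and 2.18 in knockout replicates 1, 2 and 3. FPKM is scaled for library size, but how the deposited values were scaled is not stated. The lower knockout levels below come from libraries with more footprints, and an effect of depth cannot be told apart from one of strain.

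The 104 genes together gave up most of their footprint level in the knockout. Their summed FPKM was 44828, 44598 and 47800 in wild-type replicates 1, 2 and 3. It was 7025, 7075 and 7495 in the knockout replicates. The knockout sum was 15.7% of the wild-type sum, 7198 ± 258 against 45742 ± 1786 (SD, n = 3 each). As a share of all FPKM of a library, the 104 genes took 4.47% ± 0.17 for wild-type libraries and 0.737% ± 0.028 for knockout libraries (SD, n = 3 each). Each of the 3 wild-type sums lay far above each of the 3 knockout sums, which the way the genes were chosen fixes. The 3 genes with the highest wild-type means made up 35.7% to 37.9% of the sum in the wild-type libraries and 27.3% to 30.6% in the knockout libraries. Without them, the sums were 28971 ± 603 and 5143 ± 62.0 (SD, n = 3 each), and the knockout sum was 17.8% of the wild-type sum.

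The median over the list was 118, 118 and 108 FPKM in wild-type replicates 1, 2 and 3, and 17.5, 18.7 and 17.0 FPKM in the knockout replicates. No member was at 0 in any library. The lowest wild-type value of a gene was at least 2 times its highest knockout value for 102 of the 104 genes, with a median of 4.46 times. The exceptions were POX_5g07498 at 1.86 times and POX_1g01281 at 1.94 times. A limma fit covered the 7703 genes that reached 1 FPKM in 3 or more libraries. Of these, 38.9% were past an adjusted p of 0.05 (Benjamini-Hochberg) in either direction, and 22.2% were past it and lower in the knockout. All 104 members were among them. The choice of members used this contrast, so nothing is read from that count. For the same reason, nothing is read from the lack of overlap between the strains among the members. The same holds for the count with a factor of at least 2 and the median factor, for which no share over all genes was computed. Across all tested genes, 27.8% had every wild-type value above every knockout value, and 6.01% had a ratio of at most 1/4.

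**Figure D1:**
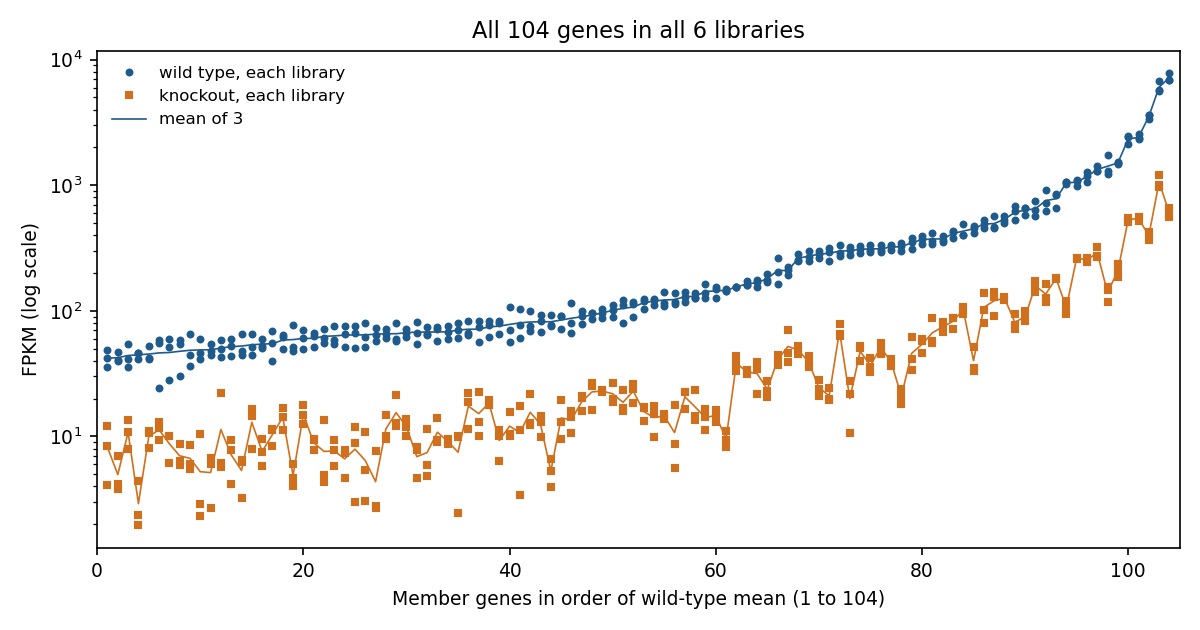
FPKM on a log scale (vertical axis) of each of the 104 genes, placed in the order of their wild-type means from 42.0 to 7193 FPKM (horizontal axis), with blue circles for the 3 wild-type libraries, orange squares for the 3 knockout libraries and lines for the means of 3. The band of knockout values runs below the band of wild-type values along the whole range, and the knockout squares spread more where levels are low.

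Reductions were more often near the shallow end of the range than the deep end. Of the 104 genes, 46 were 4 to 6 times lower, 24 were 6 to 8 times lower and 19 were 8 to 10 times lower. Only 6 were 10 to 12 times lower and 9 were 12 to 16 times lower. The knockout level of the median gene was 15.4% of its wild-type level, with quartiles of 11.8% and 21.6%. On the log2(FPKM + 1) scale of the limma fit, the median change over the members was -2.59, against -0.05 over all genes tested. The bounds on the ratio placed the members lower in advance, so nothing is read from this difference. Across the 104 genes, the wild-type mean and the ratio had a Spearman correlation of 0.05, a description over genes that share the same 6 libraries and were restricted in both measures.

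**Figure D2:**
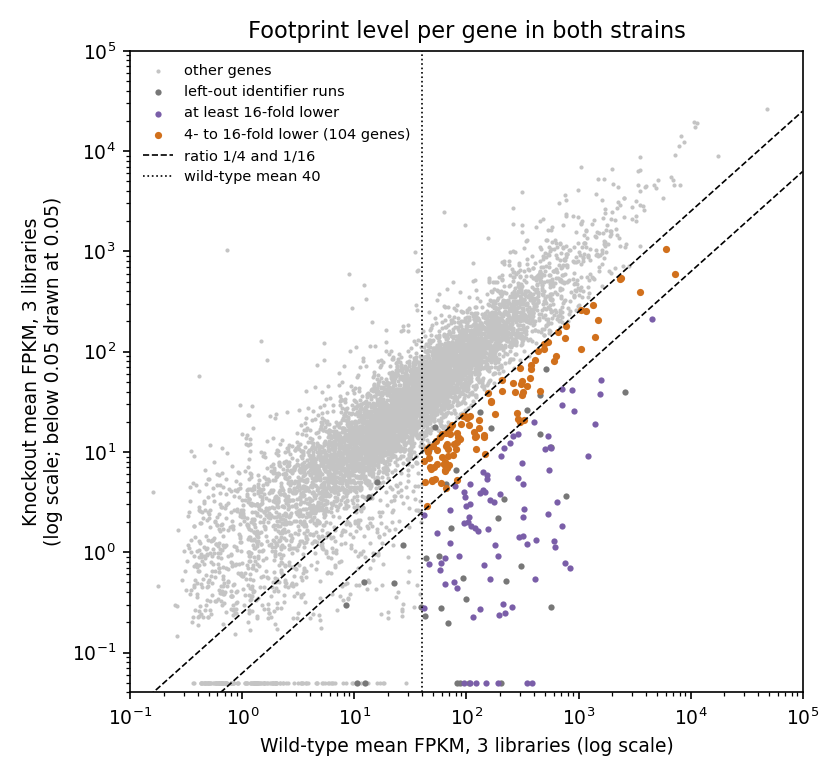
Mean FPKM in the knockout (vertical axis) against mean FPKM in the wild type (horizontal axis), both on log scales and over 3 libraries, 1 point per gene. The 104 genes (orange) fill the wedge between the dashed lines for ratios of 1/4 and 1/16 to the right of a wild-type mean of 40, from 42.0 FPKM up to 7193 FPKM.

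The list spans a wide range of wild-type levels. It holds 49 genes with a wild-type mean of 40 to 100 FPKM, 38 from 100 to 500, 6 from 500 to 1000 and 11 at 1000 or more. Those 49 genes are 2.86% of the 1716 genes with wild-type means in that band outside the left-out runs. The share was 2.96% from 100 to 500 FPKM, 3.11% from 500 to 1000 FPKM and 7.28% of the 151 genes at 1000 FPKM or more. FPKM orders genes only roughly here, since the length the authors divided by for each gene is not known. The shares were not tested against each other, and the band bounds were chosen after the values were seen.

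The most abundant member was POX_3g03767. Its FPKM was 6850, 6944 and 7786 in the wild type and 576, 554 and 657 in the knockout. The strains were separated by a factor of 10.4 between the lowest wild-type and the highest knockout value. Its means were 7193 ± 515 and 596 ± 54.2 (SD, n = 3 each), a level 12.1 times lower in the knockout from 8949 and 1556 footprints. It is also the member nearest to a left-out run, 9 numbers from it.

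The next most abundant member, POX_3g04796, was reduced less. It had wild-type values of 5762, 5639 and 6750 FPKM and knockout values of 1004, 975 and 1209 FPKM, a knockout level of 17.6% of the wild type. In both strains replicate 3 was the highest, and the strains stayed a factor of 4.66 apart. Its CVs, the SD as a share of the mean, were 10.1% and 12%, below the medians over the members of 11.4% and 18.7%. Its footprint chi-square values, per degree of freedom, were the highest of the list, at 30.9 (wild type) and 20.8 (knockout). For the same CV such values rise with the number of footprints, and this gene also had the most, 11220 and 4175.

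POX_1g00163 had wild-type values of 3625, 3358 and 3599 FPKM and knockout values of 365, 402 and 425 FPKM. Its knockout level was 11.3% of the wild type. The values of each strain lay close together, with CVs of 4.18% and 7.65%. POX_2g03188 had wild-type values of 2322, 2374 and 2542 FPKM and knockout values of 560, 515 and 559 FPKM. POX_6g08659 had wild-type values of 2118, 2447 and 2433 FPKM and knockout values of 512, 548 and 536 FPKM. These 2 genes had levels close to each other within each strain, and their knockout levels were 22.6% and 22.8% of the wild type. POX_5g07481 had wild-type values of 1517, 1483 and 1521 FPKM and knockout values of 187, 203 and 235 FPKM, a level 7.23 times lower. Its wild-type values agreed within a CV of 1.40%, and its knockout CV was 11.6%. Among these 6 most abundant members the knockout level thus ran from 8.28% to 22.8% of the wild type.

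The deepest reductions on the list belonged to 3 genes of lower level. POX_3g04575 had wild-type values of 344, 330 and 298 FPKM and knockout values of 23.9, 20.9 and 18.1 FPKM. POX_5g07658 had wild-type values of 77.1, 92.4 and 76.0 FPKM and knockout values of 6.61, 3.97 and 5.30 FPKM. POX_3g04582 had wild-type values of 150, 144 and 143 FPKM and knockout values of 9.33, 10.9 and 8.24 FPKM. The ratios of these 3 were 6.46%, 6.47% and 6.51%, just inside the bound of 6.25%, and they rest on 105, 24 and 34 knockout footprints. The genes just beyond that bound were POX_7g09444 at 5.90% (713 ± 17.1 against 42.1 ± 3.77 FPKM), POX_5g06653 at 5.88% (78.7 ± 18.2 against 4.63 ± 2.32) and POX_1g00238 at 5.61% (41.5 ± 6.65 against 2.33 ± 1.75, all SD, n = 3 each). The ratios on both sides of this bound are close to each other. Without knockout replicate 2, the ratio of POX_1g00238 was 0.0347 in place of 0.0561.

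At the shallow end, POX_6g08071 had wild-type values of 70.0, 61.0 and 49.6 FPKM and knockout values of 12.5, 17.8 and 14.8 FPKM. POX_4g06306 had wild-type values of 154, 156 and 154 FPKM and knockout values of 38.4, 33.4 and 43.7 FPKM. POX_5g06815 had wild-type values of 223, 194 and 212 FPKM and knockout values of 46.1, 70.9 and 39.2 FPKM. Their knockout levels were 24.9%, 24.9% and 24.8% of the wild type, and knockout replicate 2 stood above the other knockout replicates for the last of these genes. Just outside the bound of 25%, POX_2g02839 and POX_8g10301 were both at 25.1% (40.4 ± 10.3 against 10.1 ± 1.78 and 361 ± 27.5 against 90.5 ± 3.83 FPKM). POX_4g06124 was also at 25.1% (52.4 ± 13.2 against 13.2 ± 5.75 FPKM, SD, n = 3 each). The genes on both sides of this bound had nearly the same ratios.

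The bound on the wild-type level falls in the same way within a continuum. The lowest wild-type means on the list were those of POX_3g04568 (42.0 ± 6.44 FPKM), POX_3g04144 (42.3 ± 3.73) and POX_1g01750 (44.1 ± 9.63), with knockout means of 8.18 ± 3.98, 4.96 ± 1.72 and 10.8 ± 2.75. Just under the bound were POX_5g07239 (39.9 ± 13.2 FPKM), POX_1g01708 (38.6 ± 15.6) and POX_7g10046 (37.9 ± 5.15), with knockout means of 4.83 ± 3.13, 3.23 ± 1.14 and 2.55 ± 0.95 (SD, n = 3 each). With counting error alone, the 95% exact interval of the ratio of depth-corrected footprints lay inside both bounds for 64 of the 104 genes. It reached above 25% for 28 and to 6.25% or below for 12. These intervals leave out the differences between cultures and use depths that carry the deposited scaling. With each of the 6 libraries left out in turn, 78 of the 104 genes met the conditions every time, and 26 dropped out at least once.

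Replicates of the typical member spread more than counting error alone gives. A chi-square of the footprints against the libraries' depths, per degree of freedom, has a median of 0.693 for 3 libraries where only counting error is present. Its median over the members was 1.08 in each strain, and it was above 0.693 for 72 members in the wild type and for 67 in the knockout. The same medians over the genes with a wild-type mean of at least 40 FPKM outside the left-out runs were 1.13 and 1.38. The CV of FPKM over 3 libraries had a median of 11.4% for wild-type libraries and 18.7% for knockout libraries, and it was higher in the knockout for 79 of the 104 genes. Over those genes with a wild-type mean of at least 40 FPKM, the median CVs were 12.1% and 10.1%. The share of them with the higher CV in the knockout was not computed. The members were chosen for low knockout levels, so nothing is read from the count. The members had a median of 245.5 footprints over the 3 wild-type libraries and 81 over the 3 knockout libraries. The strain with fewer footprints per member was thus the one with the wider spread.

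**Figure D3:**
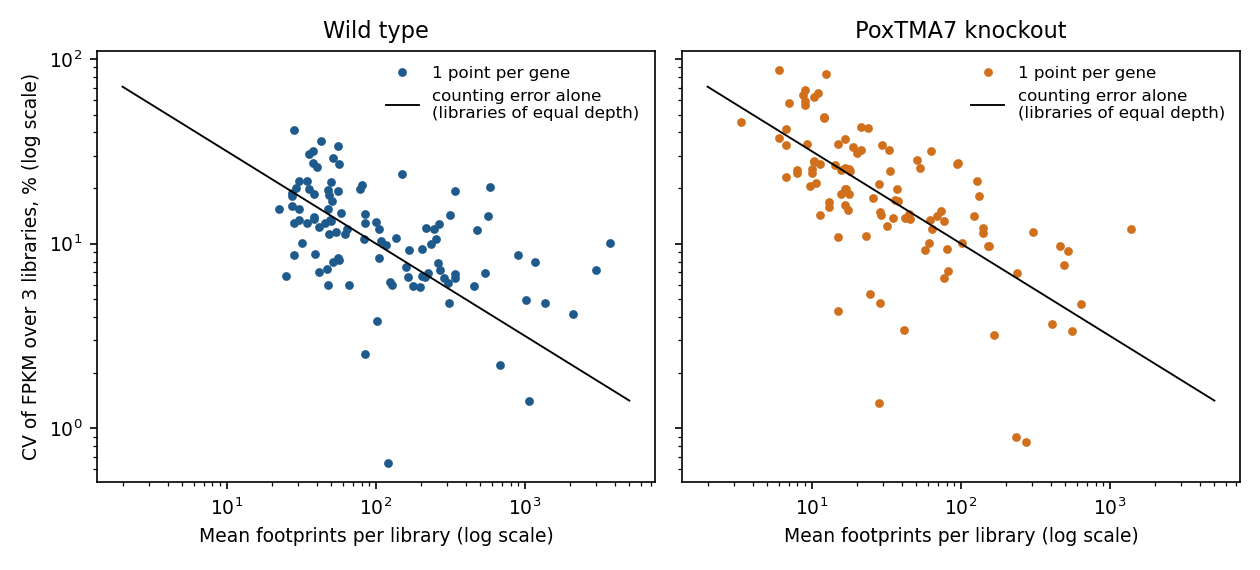
Coefficient of variation of FPKM over 3 libraries, in % on a log scale (vertical axis), against the mean number of footprints per library on a log scale (horizontal axis), 1 point for each of the 104 genes in the wild type (left) and the knockout (right). The line is counting error alone for libraries of equal depth. Of the 104 points, 59 wild-type and 55 knockout ones lie above it, the median CVs are 11.4% and 18.7%, and the wild-type genes with the most footprints lie mainly above it.

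A few members varied more. In the wild type, the highest CVs were those of POX_5g07498 with an FPKM of 59.1, 55.2 and 24.3, POX_5g06919 with 60.0, 51.8 and 27.9, and POX_1g00124 with 107, 70.0 and 56.5. Wild-type replicate 3, the shallowest library, was the lowest for each of these 3. Their knockout values were 11.6, 13.1 and 9.30 for POX_5g07498, 9.98, 6.19 and 10.0 for POX_5g06919, and 10.1, 10.5 and 15.6 for POX_1g00124, so the strains did not overlap. In the knockout, the highest CVs were those of POX_2g02549 with an FPKM of 2.90, 10.5 and 2.33, POX_1g01281 with 6.13, 22.1 and 5.74, and POX_3g04044 with 13.5, 4.88 and 4.34. A single library stood above the other knockout libraries in each case, replicate 2 for the first of these genes and for POX_1g01281, and replicate 1 for POX_3g04044. Their wild-type values were 59.1, 41.5 and 45.9 for POX_2g02549, 59.0, 49.7 and 42.9 for POX_1g01281, and 55.2, 72.2 and 60.5 for POX_3g04044. The knockout values of these genes rest on 18, 37 and 27 footprints. Without the library that stood apart, the ratio of POX_2g02549 was 0.0535 in place of 0.107, that of POX_1g01281 was 0.117 in place of 0.224, and that of POX_3g04044 was 0.0736 in place of 0.121.

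Wild-type replicate 3 tended to be low for members of low level and high for members of high level. It was the lowest of the 3 wild-type libraries for 28 of the 49 members with a wild-type mean under 100 FPKM, and the highest for 10 of the 17 members at 500 FPKM or more. The same held over all genes outside the left-out runs, where it was the lowest for 42.4% at wild-type means from 40 to 100 FPKM and the highest for 46.5% at 500 FPKM or more. Over the same 2 groups of all genes, knockout replicate 3 was the lowest knockout library for 40% and the highest for 47.4%. Among the members, knockout replicate 3 was the lowest for 16 of the 49 and the highest for 6 of the 17. Among the 6 most abundant members, wild-type replicate 3 was the highest wild-type library for 4. Without wild-type replicate 3 the median knockout level of the members was 15.0% of the wild type in place of 15.4%.

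The 104 genes were spread over the identifiers. The first digit of an identifier runs from 1 to 8 for members, and digits 1 to 8 held 19, 21, 17, 7, 15, 11, 7 and 7 of them. As a share of the genes with a wild-type mean of at least 40 FPKM and the same digit, this ran from 1.59% for digit 4 to 4.49% for digit 8. That digits are chromosomes and that consecutive numbers are neighbours in the genome was not checked, since no genome of the files' annotation was used here. Members of the same digit lay a median of 55.5 numbers apart. Of the 96 gaps between successive members, 2 were a single number and 15 were 10 numbers or fewer.

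**Figure D4:**
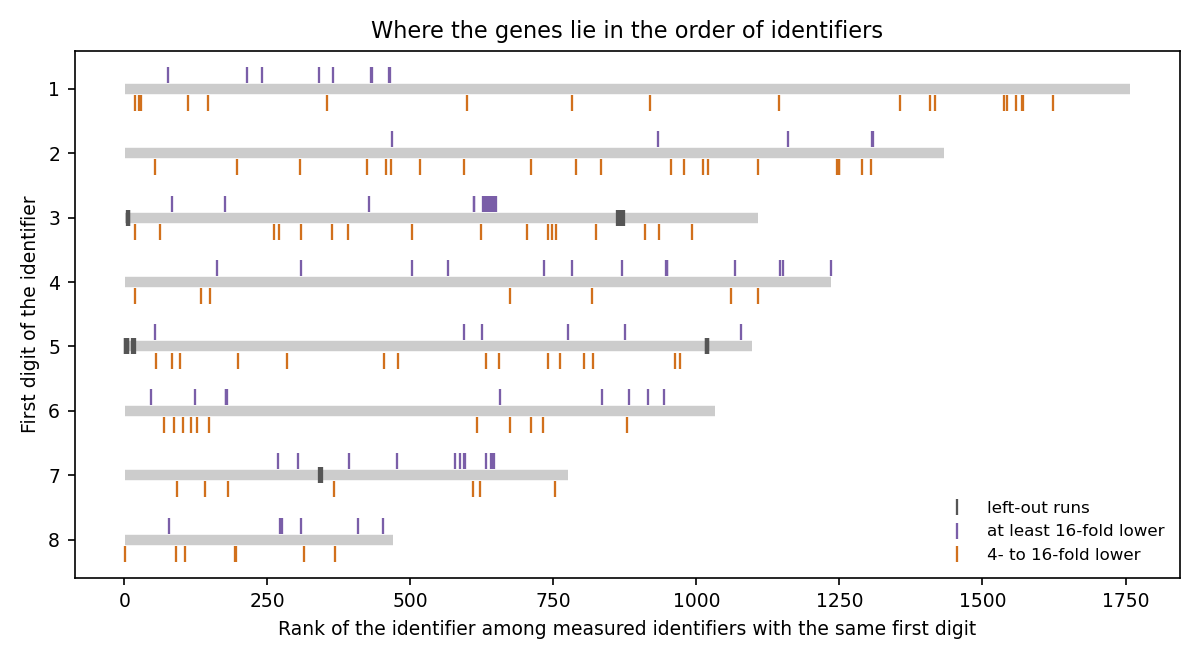
Place of each gene in the order of measured identifiers (horizontal axis, rank) by the first digit of the identifier (vertical axis), with orange ticks for the 104 genes, purple ticks for the 89 genes reduced at least 16-fold under the same other conditions and dark ticks for the left-out runs. The orange ticks are scattered along all 8 bars, while some purple ticks form blocks.

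The longest stretches of consecutive members were 2 pairs. POX_8g10272 had wild-type values of 371, 397 and 339 FPKM and knockout values of 57.1, 59.3 and 45.9 FPKM. Its neighbour POX_8g10273 had wild-type values of 333, 305 and 297 FPKM and knockout values of 52.2, 55.6 and 45.5 FPKM. The pair had similar levels and similar reductions, to 14.7% and 16.4% of the wild type. In the other pair, POX_2g03445 had wild-type values of 204, 261 and 162 FPKM and knockout values of 44.5, 40.8 and 37.0 FPKM. POX_2g03446 had wild-type values of 71.0, 74.7 and 57.9 FPKM and knockout values of 14.1, 8.97 and 9.31 FPKM. The reductions were to 19.5% and 15.9%, and in both genes wild-type replicate 2 was the highest and wild-type replicate 3 the lowest. The next identifier, POX_2g03447, which was named after its values were seen, went the other way, from a mean of 27.1 to 180 FPKM.

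Most genes next to the members in the identifier order did not pass the limma threshold. Most tested genes did not either, since 38.9% of them passed it in either direction. Of 180 tested neighbours, 41 were past the limma threshold and lower in the knockout, or 22.8%, near the 22.2% of all tested genes. Another 21 were past it and higher, and 118 did not pass it. A ratio of at most 1/4 was found in 15 of the neighbours, or 8.33%, beside 6.01% of all tested genes. At least 1 such neighbour was found for 15 of the 104 members, or 14.4%, and for 8.76% of all genes with a wild-type mean of at least 40 FPKM outside the left-out runs. Of these 15 neighbours, 4 were members themselves, in the pairs above, 1 was a gene reduced at least 16-fold, and the other 10 did not meet the condition on the wild-type level. For 66 of the 104 members neither neighbour was past the threshold and lower. The share over all genes was not computed, so nothing is read from that count.

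Genes reduced at least 16-fold under the same other conditions had other surroundings. Of their 151 tested neighbours, 45.0% had a ratio of at most 1/4 and 59.6% were past the threshold and lower. Without the 22 of these genes that lie in stretches of at least 5, chosen after the values were seen, the shares were 23.9% and 44.0% of 109 neighbours. For the 406 genes reduced 2- to 4-fold under the same conditions they were 4.70% and 23.0%. These shares are descriptions, since neighbouring genes are not independent, and the differences between them were not tested.

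**Figure D5:**
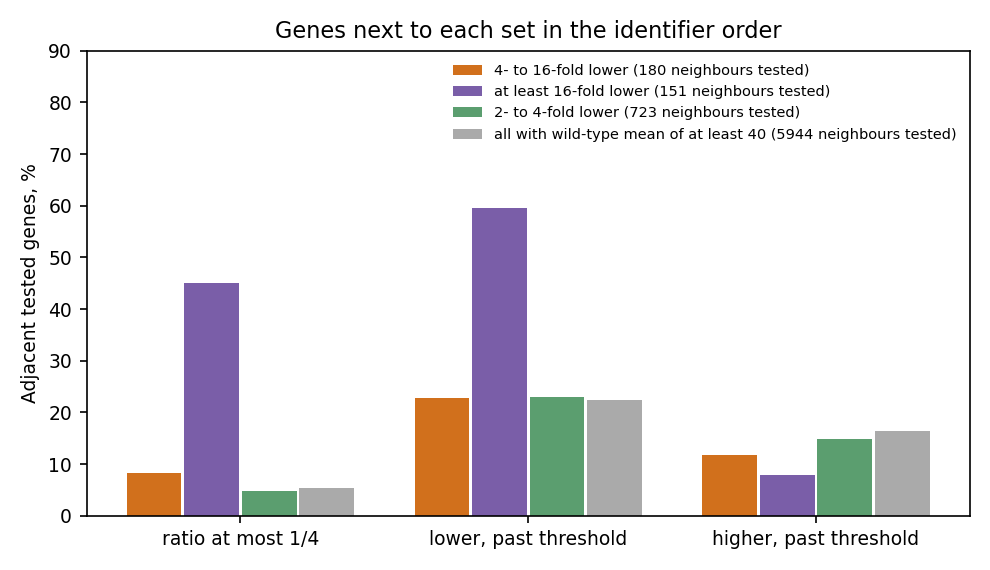
Share of tested genes adjacent in the identifier order, in % (vertical axis), that had a ratio of at most 1/4 or were past the limma threshold and lower or higher in the knockout, with 1 bar for each set of genes. The bars of the 104 genes (orange, 8.33%, 22.8% and 11.7%) stand beside 5.40%, 22.4% and 16.5% for all genes with a wild-type mean of at least 40 FPKM (grey), and those of genes reduced at least 16-fold (purple) reach 45.0% and 59.6% for the falls.

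Neighbours past the threshold and higher in the knockout were 11.7% of those tested beside members, and 16.5% beside all genes with a wild-type mean of at least 40 FPKM. By log2 change, the largest of these rises besides POX_2g03447 above were next to the following members. POX_6g08025, with wild-type values of 125, 140 and 126 FPKM and knockout values of 14.5, 23.5 and 13.5 FPKM, precedes POX_6g08026. That neighbour had means of 311 FPKM in the wild type and 3888 FPKM in the knockout, a log2 change of 3.64 (limma, adjusted p = 3.57e-13). POX_1g01736, with wild-type values of 321, 277 and 306 FPKM and knockout values of 27.4, 21.9 and 10.6 FPKM, precedes POX_1g01737, which went from a mean of 46.7 to 248 FPKM (log2 change 2.41, limma, adjusted p = 7.06e-07). In each of these pairs of identifiers 1 gene was thus lower and its neighbour higher in the knockout. All of these were named after their values were seen.

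The members POX_3g04568, POX_3g04575 and POX_3g04582 lay 7 numbers apart from each other, and the last 2 carried the smallest and the third smallest ratio of the list. Of the 11 tested genes between them, 7 were not past the limma threshold, 2 were higher and 2 lower in the knockout. POX_3g04573 went from a mean of 201 to 172 FPKM and POX_3g04571 from 89.8 to 85.5 FPKM, neither past the threshold. POX_3g04578 was higher in the knockout, with means of 120 and 201 FPKM (log2 change 0.74, limma, adjusted p = 0.000638). POX_3g04574 and POX_3g04580 were lower, at 42.5% and 20.9% of the wild type. This stretch was looked at after the values were seen.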

How the data were processed

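The authors deposited gene-level FPKM values for each library, a unit named per the file headers. Footprints were made with RNase I (1 h) and gel selection of 26 to 34 nucleotides, per the labels' protocols. Tools listed in the submitters' processing notes are STAR 2.7, cutadapt, Bowtie and DESeq2, whose use on these values is not stated. Build, annotation and counter: none is given in the sources used here. Total FPKM was 1.05 times as high in wild-type as in knockout libraries, as a ratio of means. The totals of same-numbered libraries of the strains added up to almost exactly 2000000 FPKM, so the deposited scaling ties them in pairs.

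Footprints per gene were read as the smallest whole numbers that fit all 6 libraries. The deviation from whole was at most 0.014 of a footprint for the members. The reading was also run on simulated data, which were built with the steps it had found and are thus no independent test. Exact reading was not scored there for the genes with the most footprints. A common factor in a gene's footprints would go unseen. Limma 3.58.1 in R 4.3.3 with a mean-variance trend was run on log2(FPKM + 1) for 7703 genes (at least 1 FPKM in 3 or more libraries), with two-sided p-values adjusted by Benjamini-Hochberg. P-values cover the spread between 3 replicates per strain only. Intervals for ratios are exact conditional (Clopper-Pearson) ones and cover counting error only.

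The members, lists and tests were chosen with earlier results of these data known. Members were named by wild-type mean (highest 6), ratio (3 smallest, 3 largest), nearness to each bound (3 on each side), consecutive identifiers and CV (3 highest per strain). Deviations of same-numbered libraries from their strain means correlated at 0.025, 0.045 and 0.14 over 4757 genes. Those of differently numbered libraries correlated at -0.092 to 0.047, so the value for replicates 3 was the highest of all. As these values are low, the number was not taken to pair libraries in the main fit. The deposited scaling does tie same-numbered libraries, which the main fit does not take into account. Alternatives covered left-out libraries, scaling, the added FPKM, medians, the wild-type minimum, the replicate block and limma-voom on the footprints.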

Additional observations from a re-analysis of the deposited data

How the results depend on the processing

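All 104 genes were past the threshold and lower in the knockout under each of the 14 alternative fits, which cannot test them because they were chosen on this contrast. The genes past the threshold numbered 3134 with the replicate block, 2354 to 3002 with 1 library left out and 2996 at the main settings. The number of genes meeting the conditions was 103 to 109 with 1 library left out, 91 with equal library sums, 88 after median-ratio scaling and 87 after upper-quartile scaling. It was 64 with a wild-type minimum of 80 FPKM, which by construction keeps fewer genes. Over the 3 scalings 84 of the 104 genes met the conditions each time. The median knockout level of the 104 genes as a ratio to the wild type was 0.154 and ran from 0.150 to 0.161 with 1 library left out. It was 0.162 with equal library sums, 0.165 after median-ratio scaling, 0.167 after upper-quartile scaling, 0.165 with 1 FPKM added to both means and 0.150 with medians in place of means. Adding 1 FPKM to both means raises any ratio below 1 by construction. Equal library sums also raise the ratios by construction, because total FPKM was higher in the wild-type libraries. The cause of the other shifts was not tested. The upper quartile moved the median log2 change of all tested genes by 0.11. For the 34 named genes inside and just outside the bounds, 371 of 374 alternative ratios lay within their replicate spread. That spread is wide with 3 replicates per strain, and ratios that changed by up to a factor of 2 were counted as within it. Knockout levels of members rest on as few as 10 footprints over 3 libraries, and differences between members were not tested. DESeq2 was not run because the files hold FPKM.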
